A study of Schmidtea mediterranea with 6 samples.

Results

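In whole planarians of the species *Schmidtea mediterranea*, 79 of 28069 counted transcripts were nearly lost 7 days after knockdown of the intestinal transcription factor *nkx2.2*. They were chosen on their own values. A transcript was taken when its control mean was at least 1 CPM (a transcript's counts per M counts of its library, where M is 1e+06), when all 3 *nkx2.2(RNAi)* libraries lay below all 3 control libraries, and when the *nkx2.2(RNAi)* mean was at most 12.5% of the control mean. The target transcript and *apob-1* (dd_Smed_v6_636_0_1) were left out. Because the fall itself was the criterion, the values of the members are given as a description, without a test. The members held 7948, 7119 and 7033 CPM in sum in the control libraries and 439, 399 and 535 CPM in those of *nkx2.2(RNAi)*. The summed level in *nkx2.2(RNAi)* was thus 6.21% of the control level, and the median member stood at 4.55% of its control mean.

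All animals were asexual planarians of the clonal line CIW4, taken whole and uninjured. Control animals were fed *egfp* dsRNA, which matches no planarian gene, and *nkx2.2(RNAi)* animals were fed *nkx2.2* dsRNA, with 1 feeding of 1 µg and 7 days of starvation in each group. Each group had 3 biological replicates, and the labels give 6 to 10 pooled animals for each, a higher range than the study's methods. Feeding dsRNA lowers a transcript in the whole body, so the comparison was not restricted to any cell type.

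*nkx2.2* encodes a homeodomain transcription factor that is enriched in the planarian intestine. The planarian gut is a branched, blind-ending tube. Its phagocytes take up and digest food and store nutrients, and its goblet cells secrete enzymes into the lumen. Planarians have no circulatory system, and the gut branches carry nutrients through the body. In whole-animal RNA, fewer cells of a type and less RNA per cell cannot be told apart, and no cell type is assigned to the members here.

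The libraries held 53.3 to 65.5 M counts. The target *nkx2.2* (dd_Smed_v6_2716_0_1) stood at 176, 220 and 179 CPM in controls but at 9.54, 8.21 and 8.28 CPM after knockdown, or 4.53% of control. Of the members, 39 stood at a lower percentage of control than the target and 40 at a higher one. Over 14871 transcripts with more than 1 CPM in at least 3 libraries, edgeR's exact test with an FDR of 0.05 called 808 lower (5.43%) and 771 higher (5.18%). Its quasi-likelihood test called 509 lower (3.42%) and 452 higher. With 1 library left out, the exact test called 418 to 2508 lower and 292 to 2097 higher, the fewest lower without control replicate 1, the fewest higher without *nkx2.2(RNAi)* replicate 2 and the most of both without *nkx2.2(RNAi)* replicate 1. Of the 79 members, 76 passed this filter on low counts and 76 were called lower by both tests, which follows from how they were chosen. The other 3 (dd_Smed_v6_15049_0_1, dd_Smed_v6_16506_0_1 and dd_Smed_v6_15919_0_1) were too rare to be tested. All 3 *nkx2.2(RNAi)* libraries lay below all 3 controls for 13.7% of the 14891 transcripts that met the control minimum, and the complete rule took 0.531% of them. Of 10 marker transcripts named by the study for the intestine, neoblasts and their progeny, neurons, the pharynx and body position, 2 passed the exact test. The intestinal marker *ctsla* (dd_Smed_v6_267_0_1) fell by 1.42 on the log2 scale (FDR 5.06e-11), and the intestinal marker *slc22a6* (dd_Smed_v6_1159_0_1) rose by 0.66 (FDR 5.45e-09). The third intestinal marker, *npc2* (dd_Smed_v6_73_0_1), was at 426, 429 and 446 CPM in controls and 352, 455 and 464 CPM after knockdown and did not pass (FDR 0.908). The part of intestinal cell number in the members' values was not tested.

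**Figure D1:**
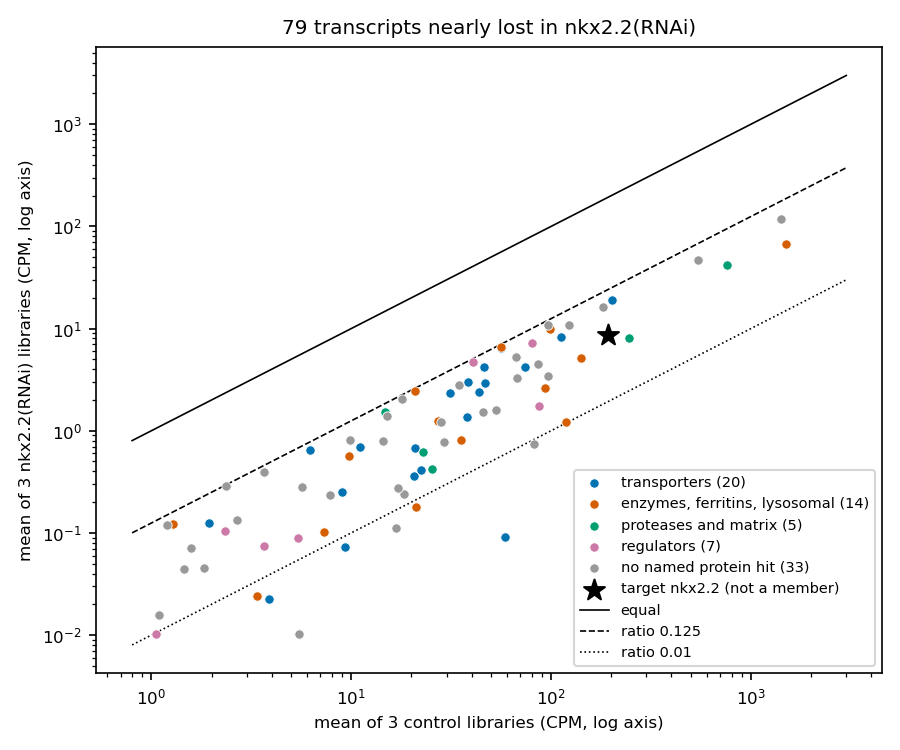
Mean CPM in 3 control libraries (horizontal, log axis) against mean CPM in 3 *nkx2.2(RNAi)* libraries (vertical, log axis) for the 79 members, coloured by role, with the target as a star. All points lie on or below the dashed line of 12.5% that chose them, and 9 lie below the dotted line of 1%.

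The extent of the loss differed widely among the members. The remainder ran from 0.157% to 12.3% of control. It was below 5% for 42 members and below 1% for 9. No member was at 0 counts in all 3 *nkx2.2(RNAi)* libraries. In 7 members at least 1 of these libraries had no count, and in 39 all 3 were below 1 CPM. For the median member the lowest control library was 15.5 times the highest *nkx2.2(RNAi)* library, and the smallest such gap was 4.49 times. Control means ran from 1.06 to 1495 CPM, with 11 members over 100 CPM. The 11 abundant members stood between 1.02% and 9.50% of control.

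The study's annotation, held here only in part, pairs each transcript with its most similar human protein. By it, 46 members had a hit with a known role. Names below are those of the human hits. They describe sequence likeness, not tested function. Of these 46, 20 (43.5%) were hits to membrane transporters and channels. The share of such hits among other transcripts was not counted, so this share is not shown to be particular to the members. Enzymes of small-molecule metabolism, ferritins, lysosomal proteins, proteases and matrix proteins, and regulators made up the others.

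The largest family was SLC47, proton-coupled exporters that move organic cations and toxins out of cells, with 6 members at 1.86% to 9.16% of control. The SLC47A2-like transcript dd_Smed_v6_10595_0_1 was at 21.5, 22.0 and 23.7 CPM in controls but at 0.488, 0.179 and 0.581 CPM after knockdown, which was the lowest remainder of the family. The SLC47A1-like transcript dd_Smed_v6_2361_0_1 had the highest control values, 116, 109 and 112 CPM, against 6.67, 6.50 and 11.7 CPM. In both, *nkx2.2(RNAi)* replicate 3 was the highest of its group, as in 5 of the 6 family members. The other 4 (SLC47A1-like dd_Smed_v6_9513_0_1 and dd_Smed_v6_8335_0_1, SLC47A2-like dd_Smed_v6_16838_0_1 and dd_Smed_v6_5125_0_1) stood at 3.21%, 7.84%, 6.45% and 9.16% of control. Reads that matched several transcripts were counted at each, so the values of close copies are not independent of each other.

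The annotation held 3 more SLC47 transcripts, and these also fell, but less. The nearest, dd_Smed_v6_7241_0_1, was just outside the threshold at 13.2% of control, with 62.9, 57.8 and 55.3 CPM in controls and 8.67, 6.94 and 7.67 CPM after knockdown (log2 fold change -2.86, edgeR exact test FDR 4.17e-137). The other two, dd_Smed_v6_11376_0_1 and dd_Smed_v6_14632_0_1, had log2 fold changes of -1.07 (FDR 4.84e-10) and -1.22 (FDR 8.68e-10). All 9 SLC47 transcripts in the annotation used here were therefore lower in *nkx2.2(RNAi)*, but that annotation was held only in part and may lack others of the family. The hits of the members and of most family transcripts named here came from the study's list of transcripts changed in this same contrast. Every tested family transcript on that list passed the exact test here. Such family counts and their FDRs are therefore not independent evidence of a fall or a direction, and unchanged family transcripts would not appear on the list.

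ABC transporters, which use ATP to export drugs, conjugates and lipids, contributed 3 members. The ABCC1-like transcript dd_Smed_v6_3982_0_1 was at 74.2, 75.1 and 73.8 CPM in controls but at 3.34, 3.29 and 5.93 CPM after knockdown. The control libraries differed by less than 2 CPM here, and this was the lowest control variation of any member (coefficient of variation 0.898%). The ABCG2-like transcripts dd_Smed_v6_8560_0_1 and dd_Smed_v6_4081_0_1 stood at 6.22% and 11.5% of control. Their best overall hit was White, which in the fly imports eye pigment precursors. Of the annotated transcripts of subfamilies A, C and G, 3 were not members. All 3 fell by the exact test, and all 3 came from the study's list of changed transcripts. ABCC3-like dd_Smed_v6_6609_0_1 (log2 fold change -2.63, FDR 2.30e-81) and ABCC1-like dd_Smed_v6_9357_0_1 (-2.26, FDR 1.23e-65) fell most. ABCA1-like dd_Smed_v6_10304_0_1 (-0.35, FDR 0.0157) fell little. The ABCA1-like call was lost without control replicate 3 (FDR 0.150) or *nkx2.2(RNAi)* replicate 2 (0.123) or 3 (0.0778). It was also lost in limma-voom (FDR 0.0502) and in the exact test without the filter on low counts (0.0774).

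The remaining 11 carriers and channels, of which 10 are described, included hits to carriers of vitamins, metals, amino acids and organic acids. The transcript similar to SLC32A1, which loads inhibitory transmitters into vesicles, was at 3.84, 3.81 and 3.92 CPM in controls (dd_Smed_v6_20353_0_1). It had 0, 0 and 4 counts in *nkx2.2(RNAi)*, a pooled 0.576% of control with an exact 95% interval for counting error of 0.156% to 1.48%. This interval takes each count as independent and is too narrow if a fragment gave several counts, which was not settled. The SLC13A3-like transcript dd_Smed_v6_1171_0_1, a hit to a dicarboxylate importer, was the most counted of the group, at 208, 201 and 197 CPM against 20.1, 17.1 and 20.4 CPM. For both, the highest *nkx2.2(RNAi)* library was below the lowest control, as the rule required of each member.

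Among the other carriers, the transcript similar to SLC10A2, the ileal bile acid importer (dd_Smed_v6_14676_0_1), stood at 0.774% of control. The riboflavin transporter hit SLC52A3 (dd_Smed_v6_11730_0_1) stood at 1.77%, the zinc importer hit SLC39A1 (dd_Smed_v6_10160_0_1) at 2.82% and the folate transporter hit SLC46A1 (dd_Smed_v6_5528_0_1) at 5.45%. The lysosomal lipid transporter hit SPNS1 (dd_Smed_v6_4119_0_1) stood at 3.63%, and the neutral amino acid transporter hit SLC6A19 (dd_Smed_v6_11807_0_1), whose best overall hit was a serotonin transporter, at 6.22%. The monocarboxylate transporter hit SLC16A4 (dd_Smed_v6_18975_0_1) stood at 10.4%, and the cation channel hit TRPM2 (dd_Smed_v6_10485_0_1) at 7.44%. Of the 2 other annotated SLC10 transcripts, 1 passed the test. SLC10A3-like dd_Smed_v6_17017_0_1 fell (log2 fold change -1.49, edgeR exact test FDR 5.29e-05), and the second SLC10A2-like transcript, dd_Smed_v6_10199_0_1, was at 17.0 ± 0.817 CPM in controls and 19.5 ± 3.17 CPM after knockdown (SD, n = 3 each; FDR 0.186). Of all 97 annotated SLC transcripts, 15 were members. Of the 80 others that were tested, 42 were lower, 8 were higher and 30 did not pass. The 30 were the ones that the study's list for this contrast did not hold. This split was set by that list, so it is not comparable with the 5.43% called lower over all tested transcripts.

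The enzymes included 3 of the kynurenine pathway, which breaks down tryptophan, and they act on consecutive intermediates in mammals. HAAO opens the ring of hydroxyanthranilate. ACMSD then decarboxylates the product, which keeps it from forming quinolinate, and ALDH8A1 oxidises the aldehyde that results. The HAAO-like transcript dd_Smed_v6_3032_0_1 was at 126, 111 and 120 CPM in controls but at 0.809, 1.06 and 1.78 CPM after knockdown. The ACMSD-like transcript dd_Smed_v6_8766_0_1 was at 21.5, 20.9 and 20.8 CPM in controls but at 0.427, 0.0358 and 0.0683 CPM after knockdown. The ALDH8A1-like transcript dd_Smed_v6_1621_0_1 was at 145, 128 and 149 CPM against 4.27, 4.08 and 7.12 CPM. The losses were to 1.02%, 0.842% and 3.66% of control, with *nkx2.2(RNAi)* replicate 1 highest for ACMSD and replicate 3 highest for the other two.

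The 3 other enzymes of this pathway found in the annotation used here fell much less. Pathway enzymes absent from this partial annotation were not examined. The transcript similar to IDO2, which takes the first step from tryptophan, went from 12.2 ± 1.87 to 8.07 ± 1.48 CPM (dd_Smed_v6_13826_0_1; SD, n = 3 each; log2 fold change -0.54, edgeR exact test FDR 0.0207). The transcript similar to KYNU, which makes anthranilates, went from 25.2 ± 2.25 to 18.9 ± 2.37 CPM (dd_Smed_v6_10866_0_1; SD, n = 3 each; log2 fold change -0.36, edgeR exact test FDR 0.0493). Both calls were lost in the quasi-likelihood test (FDR 0.0650 and 0.0877) and in limma-voom (0.0667 and 0.0821). In the exact test both were lost without the filter on low counts (0.0566 and 0.148). They were also lost without control replicate 1 (0.117 and 0.225) or 3 (0.190 and 0.249) or *nkx2.2(RNAi)* replicate 2 (0.101 and 0.275). The IDO2-like call was lost without *nkx2.2(RNAi)* replicate 3 as well (0.137). The transcript similar to AADAT, which makes kynurenate in a side branch, fell by 0.59 on the log2 scale (dd_Smed_v6_3419_0_1; FDR 4.37e-07) and kept its call in each alternative.

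The 6 other enzymes stood between 0.709% and 11.8% of control. CBR4, a carbonyl reductase, was the hit of a rare transcript and a more abundant one. The first, dd_Smed_v6_10364_0_1, was at 3.25, 3.36 and 3.49 CPM in controls and had 0, 4 and 0 counts in *nkx2.2(RNAi)*, and the second, dd_Smed_v6_7587_0_1, stood at 5.73% of control. The most counted was the hit to PDE4D, which degrades cyclic AMP, at 107, 91.3 and 99.0 CPM in controls and 10.8, 7.34 and 11.8 CPM after knockdown (dd_Smed_v6_7577_0_1). The cytochrome P450 hit CYP2C18 (dd_Smed_v6_14927_0_1) stood at 1.41% of control, and the hit to PANK1, which starts coenzyme A synthesis, at 2.28% (dd_Smed_v6_3794_0_1). The D-aspartate oxidase hit DDO (dd_Smed_v6_3560_0_1) stood at 11.8%, near the threshold.

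Ferritins store iron in the cell, and the transcripts of this family divided. The FTMT-like transcript dd_Smed_v6_1261_0_1 was at 98.1, 90.1 and 89.8 CPM in controls but at 2.34, 2.77 and 2.80 CPM after knockdown. The FTH1-like transcript dd_Smed_v6_6677_0_1 was at 29.3, 25.7 and 26.2 CPM against 1.69, 1.15 and 0.854 CPM. The third annotated ferritin, FTH1-like dd_Smed_v6_1033_0_1, was at 169, 150 and 189 CPM in controls and 194, 248 and 271 CPM after knockdown. All 3 of its *nkx2.2(RNAi)* libraries lay above all 3 controls, and it rose by 0.56 on the log2 scale (edgeR exact test FDR 0.0132). The quasi-likelihood test (FDR 0.0742) and limma-voom (0.0740) did not call it. Nor did the exact test without *nkx2.2(RNAi)* replicate 2 (FDR 0.168) or 3 (0.190) or without control replicate 1 (0.0993) or 2 (0.107). The direction was the same in each of these fits.

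**Figure D2:**
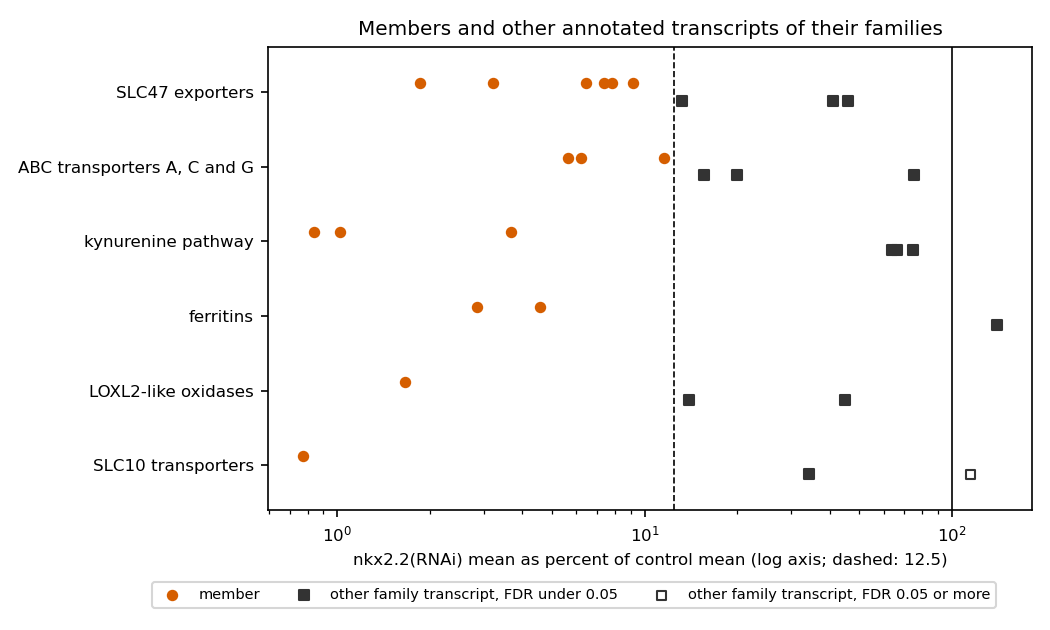
Mean of 3 *nkx2.2(RNAi)* libraries as a percentage of the mean of 3 control libraries (log axis) for members (circles) and the other annotated transcripts (squares) of 6 families. Circles lie left of the dashed line of 12.5% because they were chosen so, 12 of the 14 squares lie between it and 100%, and a ferritin and an SLC10 transcript lie above 100%.

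Of the 3 lysosomal members, the transcript similar to PSAP, the precursor of saposins, which present sphingolipids to lysosomal hydrolases, had the highest control mean of all members. It was at 1740, 1481 and 1264 CPM in controls but at 62.5, 62.0 and 76.6 CPM after knockdown (dd_Smed_v6_215_0_1). Its control libraries varied more than those of most members (coefficient of variation 16.0%). The hit to GLA, which cleaves galactose from glycolipids, was rare and stood at 9.55% of control (dd_Smed_v6_29848_0_1).

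Proteases and matrix proteins gave 5 members. TGFBI, an adhesion protein of the extracellular matrix, was the hit of dd_Smed_v6_1088_0_1, at 776, 738 and 774 CPM in controls and 41.2, 38.7 and 46.7 CPM after knockdown. The transcript similar to PRSS12, a secreted serine protease, was at 226, 259 and 255 CPM against 7.83, 6.09 and 10.1 CPM (dd_Smed_v6_1926_0_1). The LOXL2-like transcript dd_Smed_v6_7096_0_1, a hit to an enzyme that crosslinks collagen, was at 26.5, 24.0 and 25.3 CPM against 0.275, 0.197 and 0.786 CPM. The controls of these 3 varied little, with a coefficient of variation of 7.40% at most. The serine protease hits CELA1, a digestive elastase (dd_Smed_v6_8746_0_1), and CMA1, a chymase (dd_Smed_v6_11906_0_1), stood at 2.68% and 10.3% of control. Both other annotated LOXL2-like transcripts, which came from the study's list of changed transcripts, also fell. Their log2 fold changes were -2.77 for dd_Smed_v6_10591_0_1 (edgeR exact test FDR 9.78e-38) and -1.09 for dd_Smed_v6_11452_0_1 (FDR 4.43e-05).

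The 7 regulators were adaptors, a ligand, a homeodomain protein and proteins of other kinds. TRAF5 and TRAF6 carry signals from receptors of the TNF and interleukin families. TRAF6-like dd_Smed_v6_15049_0_1 and dd_Smed_v6_13811_0_1 stood at 0.964% and 2.06% of control, and TRAF5-like dd_Smed_v6_19217_0_1 at 4.46%. All 3 were rare. The first had 177 counts in the 3 controls together and 2 in *nkx2.2(RNAi)*, a pooled 1.05% with an exact 95% interval for counting error of 0.126% to 3.85%. Here too the interval takes each count as independent and may be too narrow. Of the 32 other TRAF transcripts tested, 15 were lower, 5 were higher and 12 did not pass. All 20 that passed were in the study's list for this contrast, and the 12 were not. The split thus follows that list and cannot be set against the 5.43% called lower over all tested transcripts.

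INHBE, a ligand of the TGF-beta family, was the human hit of dd_Smed_v6_4120_0_1, whose best overall hit was an uncharacterized protein. This transcript was at 82.6, 75.4 and 82.7 CPM in controls but at 7.69, 7.39 and 6.56 CPM after knockdown. The hit to LHX1, a LIM homeodomain transcription factor, was at 40.9, 37.1 and 43.7 CPM against 4.85, 4.58 and 4.83 CPM (dd_Smed_v6_8252_0_1). The *nkx2.2(RNAi)* libraries of LHX1 hardly varied, and it was the third closest member to the threshold. The hit to C10orf11, a leucine-rich repeat protein, was the most counted regulator, at 95.5, 88.9 and 77.1 CPM against 1.22, 1.81 and 2.203 CPM (dd_Smed_v6_2559_0_1). The hit to EIF4G1, a scaffold of translation initiation, stood at 1.67% of control (dd_Smed_v6_14059_0_1). The best overall hit of this transcript was a different entry, NAT1 isoform D.

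**Figure D3:**
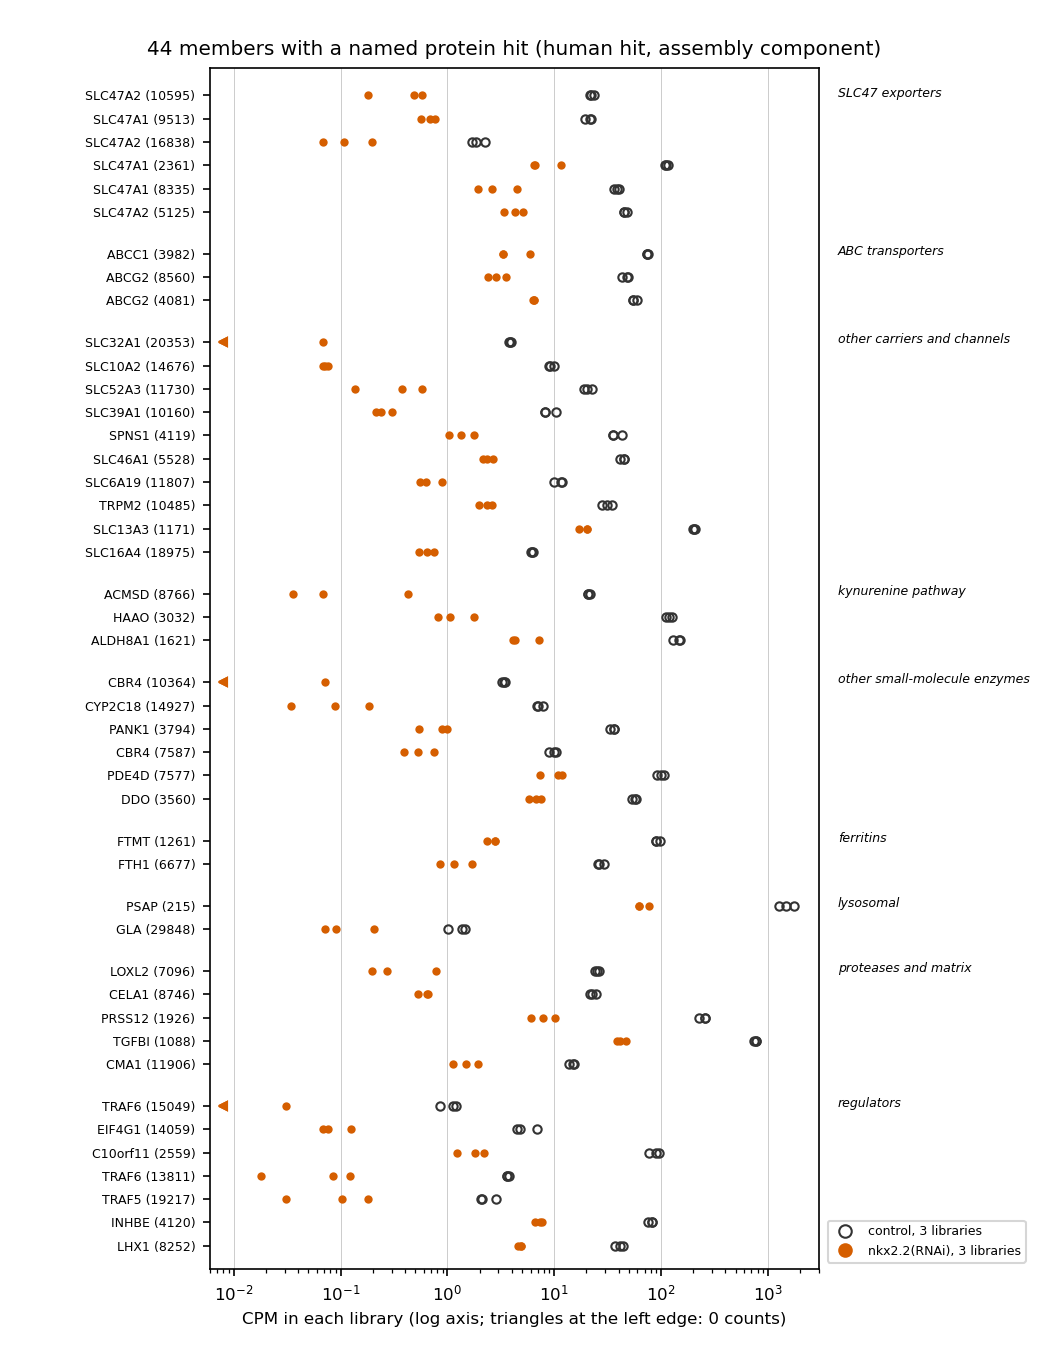
CPM of 44 of the 46 members with a named hit in each of 3 control libraries (open circles) and 3 *nkx2.2(RNAi)* libraries (filled circles), on a log axis and grouped by role. Triangles at the left edge mark libraries with 0 counts, and in every row the open and filled circles are separate because the rule required it.

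The other 33 members had no protein name to describe them. Of these, 29 had no hit in the annotation, 1 had only a hit to an uncharacterized protein (dd_Smed_v6_18375_0_1), and 3 were not in the annotation used here. Transcripts without a hit made up 38.2% of the 76 annotated members, 28.8% of 552 other lower transcripts in the study's list for this contrast, and 29.0% of all 1119 other transcripts in it. Together the 29 gave 3268, 2863 and 2870 CPM in controls and 223, 198 and 282 CPM after knockdown. The most counted was dd_Smed_v6_1_0_1, a transcript of 416 bases, at 1592, 1355 and 1294 CPM in controls and 113, 99.0 and 142 CPM after knockdown. Per length it was the highest of all members, with 3398 CPM per kilobase in controls against 1623 CPM per kilobase for the PSAP-like transcript. dd_Smed_v6_324_0_1 was next, at 577, 528 and 534 CPM against 44.8, 38.2 and 56.9 CPM. They stood at 8.35% and 8.54% of control, where the median of the 29 was 5.04%.

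The next in abundance without a hit, dd_Smed_v6_1595_0_1 and dd_Smed_v6_1068_0_1, stood at 9.05% and 8.82% of control. dd_Smed_v6_1029_1_1 stood at 11.2% and was the only member whose assembly component held another counted transcript. That second transcript, dd_Smed_v6_1029_0_1, with a hit to the kinase TNIK, was at 117, 119 and 106 CPM in controls and 122, 92.9 and 91.6 CPM after knockdown. It did not pass the test (log2 fold change -0.11, edgeR exact test FDR 0.580). The member was at 103, 93.2 and 94.0 CPM against 9.25, 9.66 and 13.5 CPM.

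The deepest losses without a hit were in dd_Smed_v6_13438_0_1 and dd_Smed_v6_13709_0_1. The first was at 5.55, 5.23 and 5.63 CPM in controls and had 2, 0 and 0 counts in *nkx2.2(RNAi)*. Pooled over libraries this was 0.203% of control, with an exact 95% interval for counting error of 0.0245% to 0.735%, which likewise takes each count as independent. The second was at 16.3, 16.4 and 17.7 CPM in controls and had 6, 2 and 12 counts in *nkx2.2(RNAi)*. dd_Smed_v6_6998_0_1, dd_Smed_v6_12877_0_1 and dd_Smed_v6_20369_0_1 followed, at 1.31%, 1.62% and 2.44% of control. Of the 3 members outside the annotation, dd_Smed_v6_7059_0_1, a transcript of 3830 bases, stood at 0.911% of control, with 83.0, 80.7 and 83.0 CPM in controls and 0.946, 0.430 and 0.871 CPM after knockdown. It was singled out after its values were seen.

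The limit of 12.5% did not fall in a gap. Just inside it were LHX1-like dd_Smed_v6_8252_0_1 (11.7%), DDO-like dd_Smed_v6_3560_0_1 (11.8%) and dd_Smed_v6_11636_0_1 without a hit (12.3%). Just outside were dd_Smed_v6_479_0_1 without a hit (12.9%), SLC24A5-like dd_Smed_v6_7121_0_1 (13.1%) and SLC47A1-like dd_Smed_v6_7241_0_1 (13.2%). No transcript that met the minimum and the ratio failed on overlap between the groups.

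Length and assembly component were not used by the rule. The members had a median length of 1381 bases, against 1443 bases in all tested transcripts, and ranged from 318 to 4857 bases. They came from 79 assembly components, so none was counted for a second isoform of the same component. Only 1 other counted transcript belonged to these components, so this count had little room to differ. Whether different components are parts of the same gene was not tested. Control variation and the order of the libraries come from the same values as the rule and are given as a description. The members' median coefficient of variation among controls was 6.80%, against 8.52% in all tested transcripts. Among the 3 *nkx2.2(RNAi)* libraries, replicate 3 was the highest for 41 of 79 members (51.9%), replicate 1 for 26 and replicate 2 for 12. Among the 730 other lower transcripts replicate 1 was the highest for 541 (74.1%), and among all tested transcripts it was the highest for 60.7%. With TMM-scaled CPM, replicate 3 was the highest for 46 members (58.2%), and replicate 1 for 56.7% of the other lower transcripts and 37.4% of all tested transcripts.

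In the median member, *nkx2.2(RNAi)* replicates 1, 2 and 3 stood at 4.50%, 4.15% and 5.06% of the control mean. In the median of the other lower transcripts they stood at 71.0%, 54.1% and 53.5%, and in that of all tested transcripts at 103.8%, 94.9% and 92.7%. With TMM scaling the members stood at 4.37%, 4.46% and 5.53%. The other lower transcripts then stood at 69.0%, 58.15% and 58.5%, a smaller gap. Replicate 1 thus kept more than the other two over the other lower transcripts, whereas in the members all 3 replicates were near the same low level. The rule allowed a member no library above 37.5% of its control mean, and the highest value in any member was 20.1% (dd_Smed_v6_11636_0_1). This bound was set by the choice of members, and the difference in order was not tested, since transcripts of the same libraries are not replicates. Among controls, replicate 1 was the highest for 46 members (58.2%) by column sums and for 35 (44.3%) with TMM scaling, beside 68.5% and 53.2% of the other lower transcripts and 44.9% and 32.2% of all tested transcripts.

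**Figure D4:**
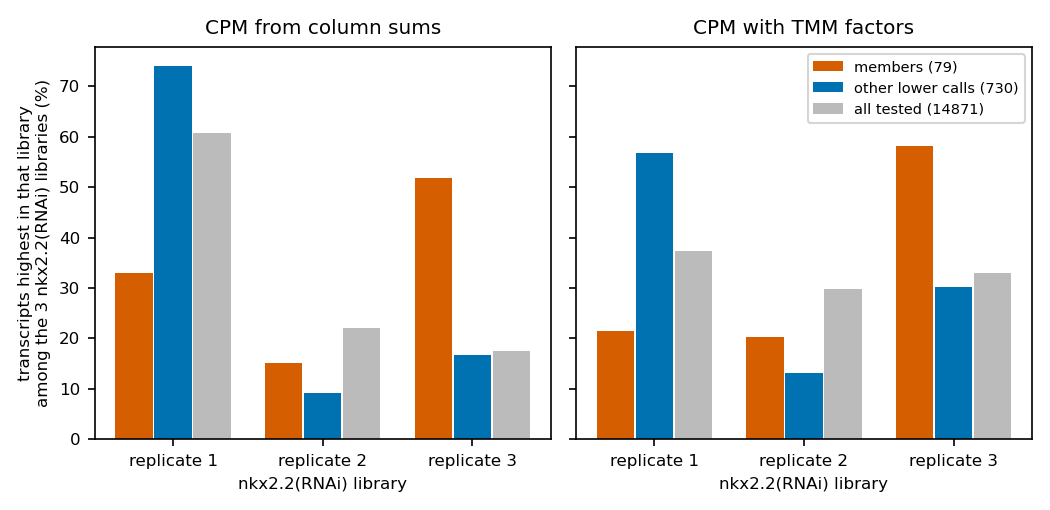
Share of transcripts (vertical, percent) that were highest in each single *nkx2.2(RNAi)* library (horizontal), for the members, the 730 other lower transcripts and all 14871 tested transcripts, with CPM from column sums (left) and with TMM factors (right). The members were most often highest in replicate 3 (51.9% and 58.2%) and the other lower transcripts in replicate 1 (74.1% and 56.7%).

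Over the 811 transcripts that were members or called lower, the members gave 17.2% of the summed fall in CPM. Of the members' own control sum of 7367 ± 505 CPM (SD, n = 3), 49.8% came from the 3 most counted transcripts, which were the PSAP-like, the dd_Smed_v6_1_0_1 and the TGFBI-like transcripts. The *nkx2.2(RNAi)* sum was 458 ± 69.9 CPM (SD, n = 3).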

How the data were processed

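Whole-animal RNA of 3 control and 3 *nkx2.2(RNAi)* replicates was sequenced from stranded, oligo-dT-enriched libraries. Per the study's methods and processing notes, the authors checked reads with FastQC 0.11.5, aligned them with Bowtie2 2.3.1 to the unique dd_Smed_v6 transcripts, keeping all alignments, and summed them with featureCounts of Subread 1.6.3, with multi-mapping reads included and no strand setting named. The deposited table holds raw counts for 28069 transcripts, with lengths, and 1 unnamed row of 0 counts that was left out. Whether a count is a fragment, a read or an alignment was not settled. The other deposited table, with fold changes and adjusted p-values computed by the authors, was not used.

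CPM was the count over the column sum. Groups were compared in edgeR 4.0.16 (R 4.3.3) with the exact test after the study's methods: CPM above 1 in at least 3 libraries, TMM factors, tagwise dispersions and Benjamini-Hochberg adjustment over all 14871 transcripts, with an FDR threshold of 0.05. Tests were two-sided, and the steps were tested on simulated data. P-values weigh the difference between the groups against the spread between these libraries, estimated with information shared over transcripts. Intervals for low counts are exact binomial (Clopper-Pearson) and cover counting error only. They take each count as independent, and are too narrow if a fragment gave several counts. Alternatives were the quasi-likelihood test, with and without a replicate block, DESeq2 1.42.0, limma-voom (limma 3.58.1), other scaling and filters, and each library left out in turn.

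Protein hits were copied from the study's supplementary annotation, held here in part. Those of the members came from its list of transcripts changed in this contrast, which was ordered by the same contrast. The members, roles and family lists were chosen with earlier results of these data known. Named were all members with a hit, the 5 deepest and 5 most counted without one, 3 on each side of the threshold, the target, family transcripts that are not members and component partners, with library values for at most 3 members of a role with a hit. A few transcripts that this rule names are not reported here. LOXHD1 hits, which the search for LOX names had found, were dropped after their values had been seen because they are not oxidases. No sequence was used.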

Additional observations from a re-analysis of the deposited data

How the results depend on the processing

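The number of members was 78 with TMM-scaled or DESeq2-scaled CPM (all 78 among the 79), 71 and 90 with a control minimum of 2 and 0.5 CPM, 67 and 109 with a ratio of at most 0.1 and 0.2, and 75 to 90 with 1 library left out. The members' median log2 ratio was -4.46, -4.38 with TMM scaling and -4.49 to -4.29 with 1 library left out. The median of all tested transcripts moved from -0.04 to 0.02 (log2) with TMM.

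Counts over all transcripts moved more. The lower and higher counts were 509 and 452 in the quasi-likelihood test, 533 and 459 in limma-voom, 858 and 737 in DESeq2, 857 and 695 with relative log expression factors, and 698 and 702 without the filter. With 1 library left out they ranged from 418 to 2508 lower and from 292 to 2097 higher, and the highest counts came without *nkx2.2(RNAi)* replicate 1 (2508 and 2097). They were under the main count by over 1.5 times without control replicate 1 (418 and 370) or 3 (499 and 476) and without *nkx2.2(RNAi)* replicate 2 (485 and 292), and, for higher transcripts, without replicate 3 (311). The lower share of calls was 51.2%, 62.4% without *nkx2.2(RNAi)* replicate 2 and 63.5% without replicate 3. Without a control library the filter kept 40 of the 79 members. Those that entered a fit were called lower in each.

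The alternatives were followed for 17 named transcripts that are not members: the family transcripts, the component partner, *ctsla* and *slc22a6*. The marker *npc2*, dd_Smed_v6_479_0_1 and SLC24A5-like dd_Smed_v6_7121_0_1 were not among them. Of the 17, 13 kept their side of the threshold in each alternative. The ABCA1-like, IDO2-like, KYNU-like and ferritin dd_Smed_v6_1033_0_1 calls were lost in 5, 7, 6 and 6 of the 12 alternatives. No direction turned among the 17. Whether replicate numbers pair the libraries was not settled. Deviations of same-numbered libraries correlated at 0.403, 0.003 and 0.167, and those of differently numbered ones at -0.375 to 0.239. The replicate block gave 1075 lower and 797 higher, against 509 and 452 without it in the same test. Depth limits the members whose *nkx2.2(RNAi)* values rest on fewer than 10 counts.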
